A study of Mus musculus with 34 samples.

Results

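The 9 enzymes described here break down the aromatic amino acids tyrosine and tryptophan in mouse liver. They are Tat, Hpd, Hgd, Fah, Tdo2, Ido2, Kmo, Kynu and Haao, 9 of the 28632 genes named on the array, read at every probe that carries their name (12 probes). RNA was measured on 34 Agilent 2-color arrays, with the liver or tumor sample in Cy3 and a pool of C57BL/6 livers of both sexes in Cy5. The tested samples were tumors at end stage and livers after the transgene had been turned off, from mice that carried c-Myc, TGFα or both (TGFα/Myc) as transgenes. Doxycycline turned the transgenes off. The c-Myc mice gave 7 tumors, 3 livers off the transgene for 4 weeks and 3 off it for 12 weeks. The TGFα/Myc mice and the TGFα mice each gave 3 tumors, 3 livers off for 4 weeks and 3 off for 12 weeks. The controls were 3 normal livers with no transgene and no doxycycline. The sources used here do not give the strain, age or sex of the sampled mice or the promoter behind each transgene. The labels call the samples biological replicates, so p-values measure the spread between these samples. The off samples are livers and not tumors, so the loss of the transgene and the change of tissue cannot be told apart, nor can either be told apart from doxycycline, which the tumor groups and controls did not receive.

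Tyrosine is broken down mostly in hepatocytes. Tat removes its amino group, Hpd makes homogentisate, Hgd opens the ring and Fah releases fumarate and acetoacetate, so that a block late in the chain leaves toxic intermediates. Tryptophan enters the kynurenine pathway when Tdo2, the main liver enzyme, or the related enzymes Ido1 and Ido2 open the indole ring. Kmo, Kynu and Haao then carry kynurenine towards quinolinate, from which the liver can make NAD. Tat and Tdo2 are textbook targets of glucocorticoid hormone.

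All probes are 60 bases long. The probes of Hpd and Fah and both probes of Tdo2 are shown because their deposited mm9 coordinates span more than their length, so they lie across exon junctions and read spliced RNA. The others fall within a single stretch of the genome. The Hpd probe spans chr5:123622237-123624360 on the minus strand, the Fah probe chr7:91740916-91741732 on the minus strand, and the 2 Tdo2 probes chr3:81772155-81773432 and chr3:81767918-81770928 on the minus strand.
Hpd probe A_51_P288341: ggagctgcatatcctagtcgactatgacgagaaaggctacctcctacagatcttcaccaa
Fah probe A_52_P302496: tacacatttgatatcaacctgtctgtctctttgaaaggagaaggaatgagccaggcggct
Tdo2 probe A_51_P452625: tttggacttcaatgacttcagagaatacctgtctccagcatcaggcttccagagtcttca
Tdo2 probe A_52_P404341: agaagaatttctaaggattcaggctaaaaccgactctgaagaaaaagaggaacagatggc

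RefSeq promoters (GRCm38.p6, the 250 bases before the start of the gene) were found for 7 of the 9 genes. Those of Tat, Hpd and Tdo2 are shown because Tat and Tdo2 start the 2 branches and Hpd follows Tat, and all 3 were higher in livers off c-Myc than in Myc tumors. Capitals mark matches, on either strand, to CCAAT (the CCAAT box), GGGCGG (the GC box) or TATAAA (the TATA box).
Tat, chr8:109990186-109990435, plus strand: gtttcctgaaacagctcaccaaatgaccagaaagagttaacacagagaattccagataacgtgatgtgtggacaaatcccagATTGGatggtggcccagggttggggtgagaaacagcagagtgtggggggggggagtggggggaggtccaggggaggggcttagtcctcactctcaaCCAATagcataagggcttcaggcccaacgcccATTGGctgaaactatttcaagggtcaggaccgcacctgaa
Hpd, chr5:123182724-123182973, minus strand: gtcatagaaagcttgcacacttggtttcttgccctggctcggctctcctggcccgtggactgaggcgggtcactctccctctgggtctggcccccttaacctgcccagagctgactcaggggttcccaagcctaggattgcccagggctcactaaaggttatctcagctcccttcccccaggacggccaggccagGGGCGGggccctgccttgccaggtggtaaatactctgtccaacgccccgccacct
Tdo2, chr3:81975729-81975978, minus strand: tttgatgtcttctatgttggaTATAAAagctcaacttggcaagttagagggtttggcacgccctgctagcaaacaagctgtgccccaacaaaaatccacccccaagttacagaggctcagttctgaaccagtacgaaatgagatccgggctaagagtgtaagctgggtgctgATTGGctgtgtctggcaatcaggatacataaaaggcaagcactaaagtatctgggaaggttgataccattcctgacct
CCAAT was found in 3 of the 7 promoters (Tat, Hgd and Tdo2) and in 33.9% of all 32841 RefSeq promoters of the same length. GGGCGG was found in Hpd and Fah and in 32.7% of all promoters. TATAAA was found in Hgd and Tdo2 and in 12.4% of all promoters, and the match in Tdo2 lay 229 bases before the start. The E box CACGTG, the sequence Myc and Max bind, was in none of the 7 and in 6.02% of all. The HNF4 element CAAAGTCCA (0.384% of all), the forkhead element TGTTTAC (3.17%), the C/EBP element TTGCGCAA (0.164%), the palindromic glucocorticoid response element and the HNF1 element (0.00913% each) were in none of the 7. Motifs were searched on both strands, and no matches overlap. A match or its absence describes these letters in this window and no more.

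The arrays differed in ways that touch the results. Slide 5, with TGFα tumors 2 and 3 and the first TGFα liver off for 4 weeks, carried a reference of another profile. Its reference channel read Tat at 10.06 to 10.34 on the log2 intensity scale, against 15.04 to 16.67 on the other 31 arrays. Its sample channels differed too, with 8 hepatocyte markers averaging 8.28 to 10.42, against 13.28 to 15.76 on the other arrays. There 5 cholangiocyte and progenitor markers averaged 12.12 to 12.33, against 7.78 to 9.31. These 3 arrays were kept apart, and only 10, 4 and 9 of their 12 probes were well above background in the sample. At Myc probes A_52_P108346 (saturated there) and A_52_P278549, the library labelled TGFα tumor 1 had values of 3.28 or more and 3.55, so its label is in question. Myc tumor 5 read 1.04 and 0.10 there and TGFα/Myc tumor 3 read 0.83 and 0.07, close to the controls, whose highest values were 0.17 and 0.50. Myc probe A_51_P102096 did not set the Myc tumors above the controls: tumor 5 read 0.43 there, the other 6 Myc tumors -0.96 to -0.32 and the controls -0.54 to 0.16, while TGFα tumor 1 read 1.37. A number is common to the names of Myc tumors 3 and 4, so they may not be of separate animals. A second scanner, on days of its own, read Myc tumors 2 to 7 and no other array. For these tumors the scanner and the tumor group cannot be told apart. Across the 34 arrays, 43.7% to 71.8% of probes were well above background in the sample. Precision is limited by how many arrays there are. Hepatocyte markers (8 genes) averaged between -2.91 and -0.31 log2 over the reference in the Myc tumors, between -0.99 and 0.54 in the TGFα/Myc tumors and between -0.38 and 0.17 in the controls. In such bulk samples, fewer hepatocytes and less RNA per hepatocyte cannot be told apart.

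In the Myc tumors the enzymes were lower than in the controls on both branches. With limma fitted across all 31544 probes kept (31 arrays, Benjamini-Hochberg adjusted p below 0.05), 8 of the 12 probes, of 7 genes, were lower and none was higher, where 35.4% of all probes were called and 16.1% were called lower. The median log2 difference over the 9 genes, each at its brightest probe, was -1.64, against -8e-04 over all probes. The 2 tumor types share the same 3 controls, and the off livers are set against the same tumors, so these comparisons are not independent. All values below are log2 of sample over reference, and their differences are on the same scale.

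Tat, the aminotransferase that starts tyrosine breakdown, had a lowest value of -3.72, a median of -2.70 and a highest of -0.11 in the 7 Myc tumors. It had -2.30, -0.92 and -1.53 in the TGFα/Myc tumors and -0.56, -0.13 and -0.06 in the controls. The reference channel was saturated at this spot on 5 of the 31 arrays, among them Myc tumors 2, 3 and 5 and control 3. Those 5 ratios are upper bounds, so the Myc difference is not exact. Myc tumor 5 lay among the controls, and the other 6 Myc tumors and all 3 TGFα/Myc tumors lay below them. The difference was -2.28 (SE 0.48) for Myc tumors against controls (limma adjusted p = 0.000774) and -1.33 (SE 0.57) for TGFα/Myc tumors (adjusted p = 0.292).

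Hpd, the dioxygenase that makes homogentisate, ran from -3.05 to -1.21 in the Myc tumors with a median of -2.16. In the TGFα/Myc tumors it read -2.40, -1.23 and -2.43, and in the controls 0.35, -0.77 and -0.98. Neither kind of tumor overlapped the controls, which were themselves spread over more than 1 unit. On 1 of the 31 arrays the reference channel was saturated at this spot, so that ratio is an upper bound. The Myc tumors differed by -1.67 (SE 0.36, limma adjusted p = 0.000995) and the TGFα/Myc tumors by -1.55 (SE 0.43, adjusted p = 0.0658).

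Hgd, which opens the ring of homogentisate, was the exception on this branch. It lay between -1.75 and -1.37 in the Myc tumors (median -1.62), at -2.63, -2.02 and -2.34 in the TGFα/Myc tumors, and at -1.24, -0.93 and -1.99 in the controls. The Myc tumors lay within the range of the controls, and the TGFα/Myc tumors lay below every Myc tumor and every control. The difference from controls was -0.21 in the Myc tumors (95% interval -0.65 to 0.23, limma adjusted p = 0.479) and -0.94 in the TGFα/Myc tumors (SE 0.25, adjusted p = 0.0604). Between the tumors, TGFα/Myc stood 0.73 below Myc (log2 difference -0.73, SE 0.21, adjusted p = 0.0154).

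Fah, the last enzyme of the chain, ran from -1.56 to -0.53 in the Myc tumors (median -1.28), with tumor 5 the highest. It read -1.20, -0.36 and -0.86 in the TGFα/Myc tumors and 0.14, -0.28 and -0.63 in the controls. Tumor 5 and the second TGFα/Myc tumor lay within the controls and all other tumors of these groups lay below them. The differences were -0.98 (SE 0.18, limma adjusted p = 0.000263) in the Myc tumors and -0.55 (SE 0.22, adjusted p = 0.242) in the TGFα/Myc tumors.

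Tdo2, which opens the tryptophan ring, varied widely between the Myc tumors. At its brighter probe, A_52_P404341, it ran from -5.38 to -0.99 in the Myc tumors (median -2.95), with tumors 3, 4 and 7 below -4 and tumor 5 the highest. It read -3.38, -2.70 and -2.70 in the TGFα/Myc tumors and -1.88, -1.00 and -2.44 in the controls. All 3 TGFα/Myc tumors lay below the controls, while the Myc tumors overlapped them. The Myc tumors differed from controls by -1.47 (SE 0.61, limma adjusted p = 0.0662) at this probe and by -1.71 (SE 0.62, adjusted p = 0.0348) at A_51_P452625, so the 2 probes fell on either side of the threshold. The call at A_51_P452625 held in 18 of 29 alternatives. It was lost with Myc tumors 3 and 4 averaged (-1.53, adjusted p = 0.0598), without control 1 (-1.79, adjusted p = 0.0688) or 2 (-1.26, adjusted p = 0.197) and without each of Myc tumors 3, 4 and 7. Without the 3 libraries whose labels are in question both probes passed, at -1.84 (adjusted p = 0.00919) and -2.08 (adjusted p = 0.00399). The TGFα/Myc tumors differed from controls by -1.15 (95% interval -2.65 to 0.35) at the brighter probe and did not pass.

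Ido2, another enzyme that opens the tryptophan ring, had the largest difference of the 12 probes in Myc tumors. At its brighter probe, A_51_P384515, the 7 Myc tumors read -3.78, -4.83, -5.11, -5.33, -1.58, -6.17 and -5.08. The TGFα/Myc tumors read -1.40, 1.06 and -0.52, and the controls 0.83, 0.68 and 0.62. Every Myc tumor lay below every TGFα/Myc tumor and every control, and the second TGFα/Myc tumor lay above all controls. The difference from controls was -5.26 (SE 0.59, limma adjusted p = 1.18e-06) in the Myc tumors and -1.00 (95% interval -2.45 to 0.45, adjusted p = 0.635) in the TGFα/Myc tumors. The second probe, A_52_P231847, was dim and well above background in only 4 of 7 Myc tumors, and its difference was -0.50 (SE 0.17, adjusted p = 0.0264). Myc tumor 5, near the controls at 2 of the 3 Myc probes, was the highest Myc tumor at both probes.

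Kmo, which hydroxylates kynurenine, ran from -2.09 to -1.13 in the Myc tumors (median -1.77). It read -1.21, -0.89 and -0.19 in the TGFα/Myc tumors and 0.16, 0.02 and 0.19 in the controls. No tumor of either group reached the controls. The differences were -1.85 (SE 0.20, limma adjusted p = 8.89e-07) in the Myc tumors and -0.89 (SE 0.24, adjusted p = 0.0618) in the TGFα/Myc tumors.

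Kynu, which cleaves hydroxykynurenine, spread from -3.90 to -0.27 in the Myc tumors (median -1.08), with tumors 3, 4 and 7 the lowest, as for Tdo2. It read -1.31, -1.22 and -0.78 in the TGFα/Myc tumors and -0.82, -0.47 and -0.31 in the controls. Both tumor groups overlapped the controls. Neither difference passed the test, at -1.27 (95% interval -2.38 to -0.16, limma adjusted p = 0.0694) in the Myc tumors and -0.57 (95% interval -1.89 to 0.74, adjusted p = 0.848) in the TGFα/Myc tumors. Its second probe, A_52_P160896, was well above background in 1 of 7 Myc tumors and gave no call.

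Haao, which makes the precursor of quinolinate, ran from -2.21 to -1.14 in the Myc tumors (median -1.58). It read -1.23, -1.15 and -0.92 in the TGFα/Myc tumors and 0.05, -0.27 and 0.24 in the controls. All tumors of both groups lay below all controls. The Myc tumors differed by -1.64 (SE 0.18, limma adjusted p = 1.03e-06) and the TGFα/Myc tumors by -1.10 (SE 0.22, adjusted p = 0.00853). For the TGFα/Myc tumors the call was lost without control 3 (-0.99, adjusted p = 0.0587) or TGFα/Myc tumor 1 (-1.04, adjusted p = 0.0748).

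**Figure D1:**
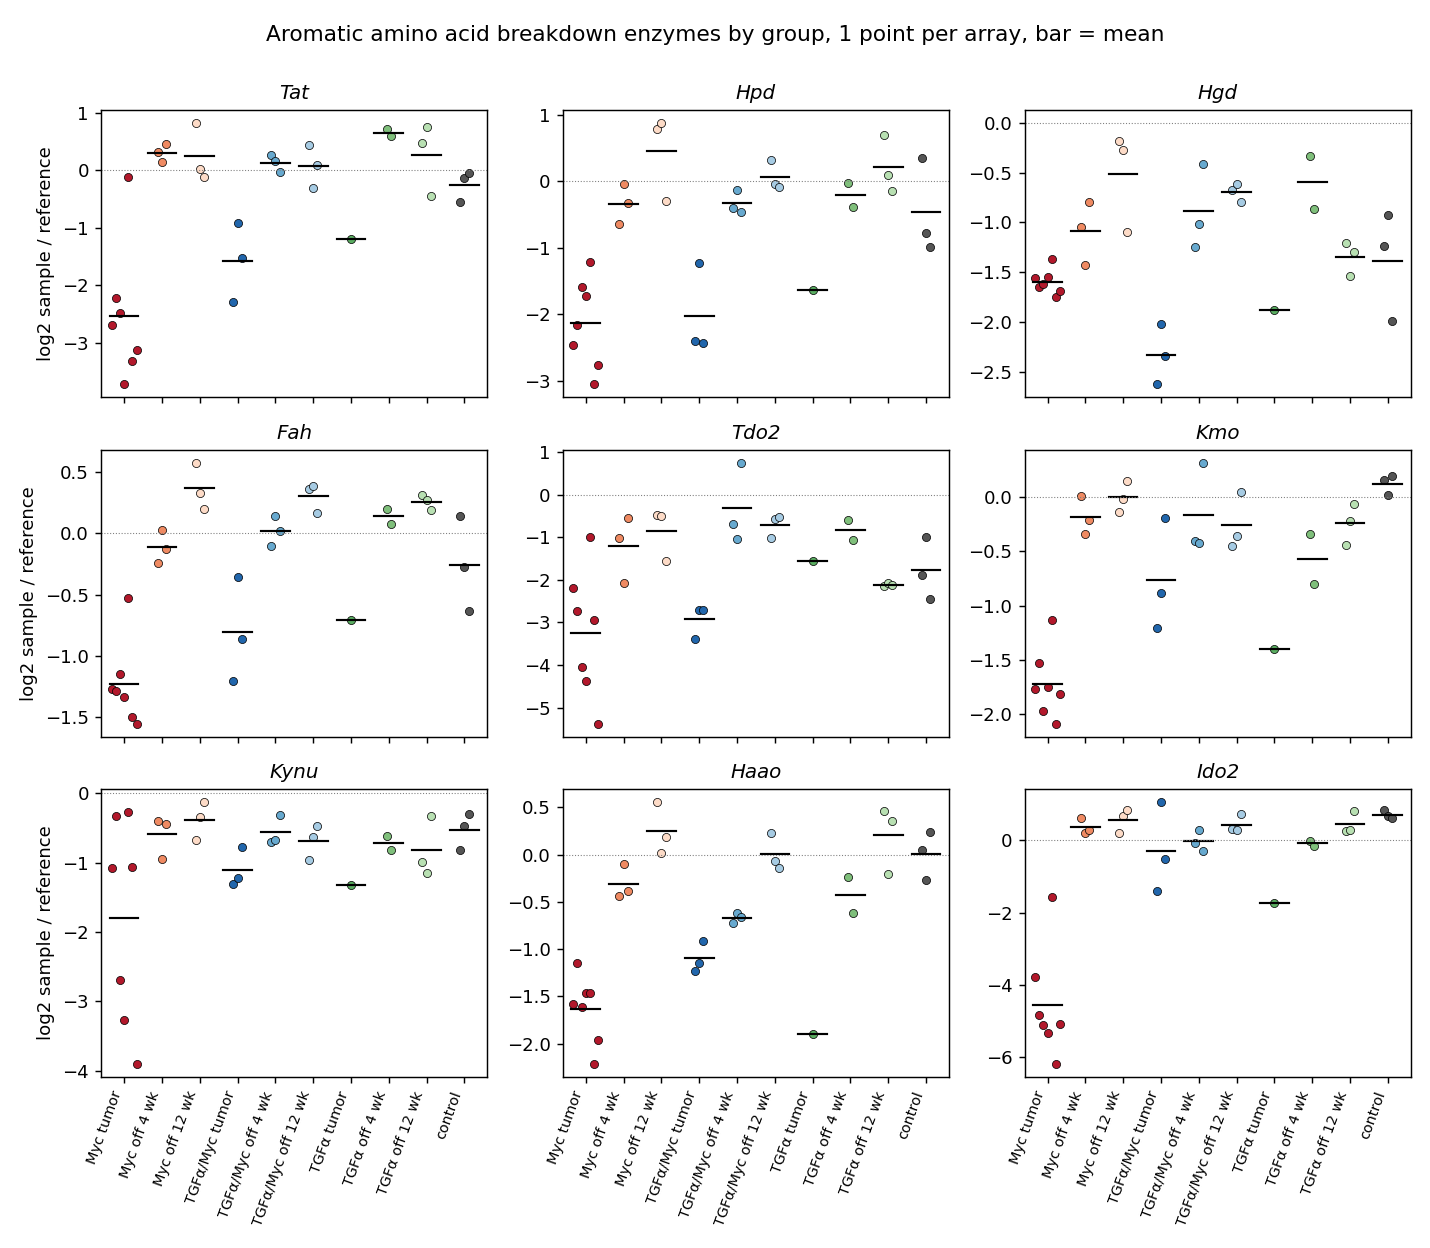
Log2 of sample over reference (vertical axis) for each of the 9 enzymes at its brightest probe, by group along the horizontal axis, with a point per array and a bar at the group mean. Ido2 sits between -6.17 and -1.58 in the Myc tumors and between 0.62 and 0.83 in the controls, while Hgd in the Myc tumors lies within the range of the controls.

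In the TGFα/Myc tumors Haao was the 1 probe of 12 called against the controls, where 1.59% of all probes were called and 0.793% were lower. Of the 12 probes, 6 had an unadjusted limma p below 0.05, a threshold at which the share of all probes was not counted. The median difference over the 9 genes was -1.00, against 0.001 over all probes. Without the 3 libraries in question Kmo was called too (-1.17, limma adjusted p = 0.00148).

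**Figure D2:**
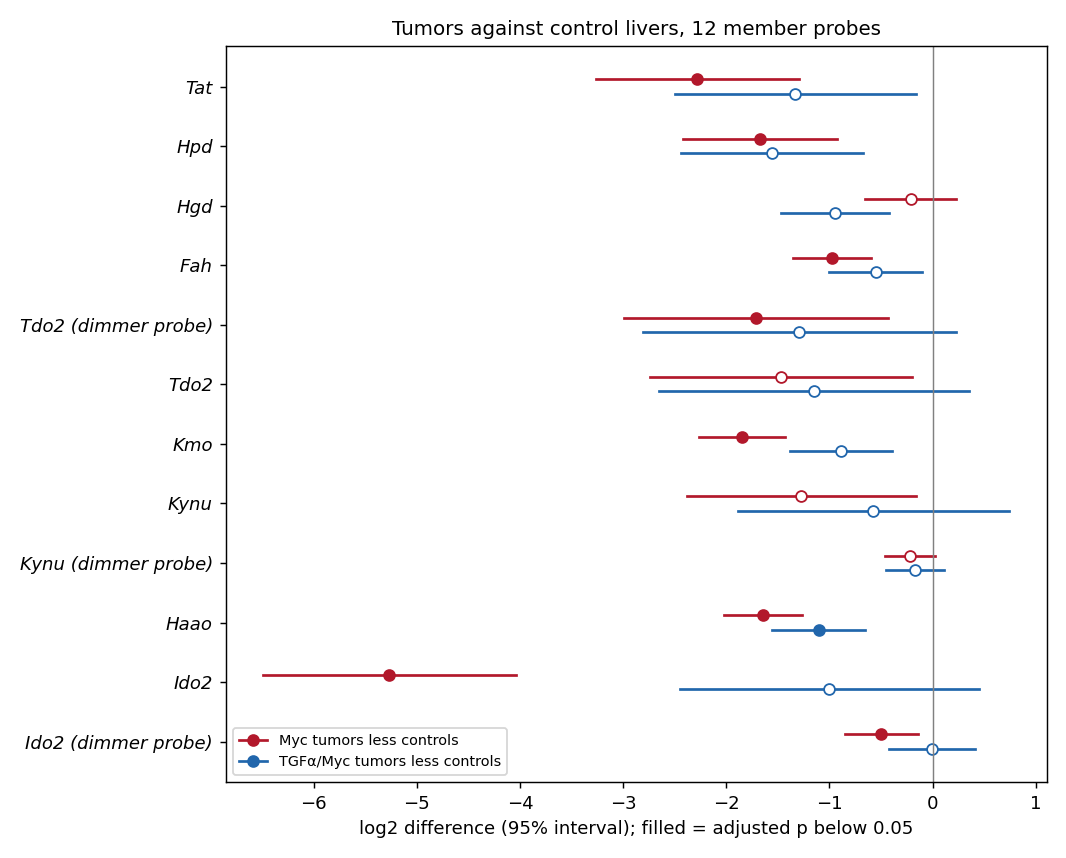
Log2 difference from the controls (horizontal axis) of Myc tumors and TGFα/Myc tumors for each probe, with lines for the 95% interval and filled points for an adjusted p below 0.05. Ido2 differs by -5.26 in Myc tumors and by -1.00 in TGFα/Myc tumors, and Haao is filled in both.

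Set against each other, TGFα/Myc tumors and Myc tumors differed at 5 of 12 probes, 4 higher and 1 lower in TGFα/Myc, where 23.9% of all probes were called, 10.8% higher and 13.1% lower. Ido2 was 4.26 higher in TGFα/Myc tumors (SE 0.59, limma adjusted p = 5.45e-05) at its brighter probe and 0.49 higher (adjusted p = 0.0374) at the dim one. Kmo was 0.96 higher (SE 0.20, adjusted p = 0.00176) and Haao 0.54 higher (SE 0.18, adjusted p = 0.0354), with TGFα/Myc and Myc tumors overlapping for both. With scan day as a fixed block none of the 12 probes passed, though Ido2 stayed 3.46 higher at its brighter probe (adjusted p = 0.276) and 0.77 higher at the dim one (adjusted p = 0.0731), while Kmo stood at 0.59 and Haao at 0.08. Haao turned to -0.056 with Agilent's processed signals and to -0.26 with median centring. Hgd was the 1 enzyme lower in TGFα/Myc tumors. Tat (0.95, 95% interval -0.04 to 1.93), Hpd (0.12, 95% interval -0.63 to 0.86) and Tdo2 (0.31, 95% interval -0.95 to 1.58 at the brighter probe) did not pass the test.

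Tumors differed within the Myc group, and the pattern was not the same for every enzyme. Tumor 5 was the highest of the 7 for Tat, Hpd, Hgd, Fah, Tdo2, Ido2, Kmo and Kynu at their brightest probes. For Haao it stood at -1.46, level with tumor 4 at -1.46, and tumor 2 was the highest at -1.14. Tumor 6 was the lowest for Hpd, Hgd, Ido2, Kmo and Haao, and tumor 7 for Fah, Tdo2 and Kynu. Tumor 5 also read 0.11 for the mean of 5 genes of dividing cells, the lowest of the 7 Myc tumors, whose highest was 3.69.

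**Figure D3:**
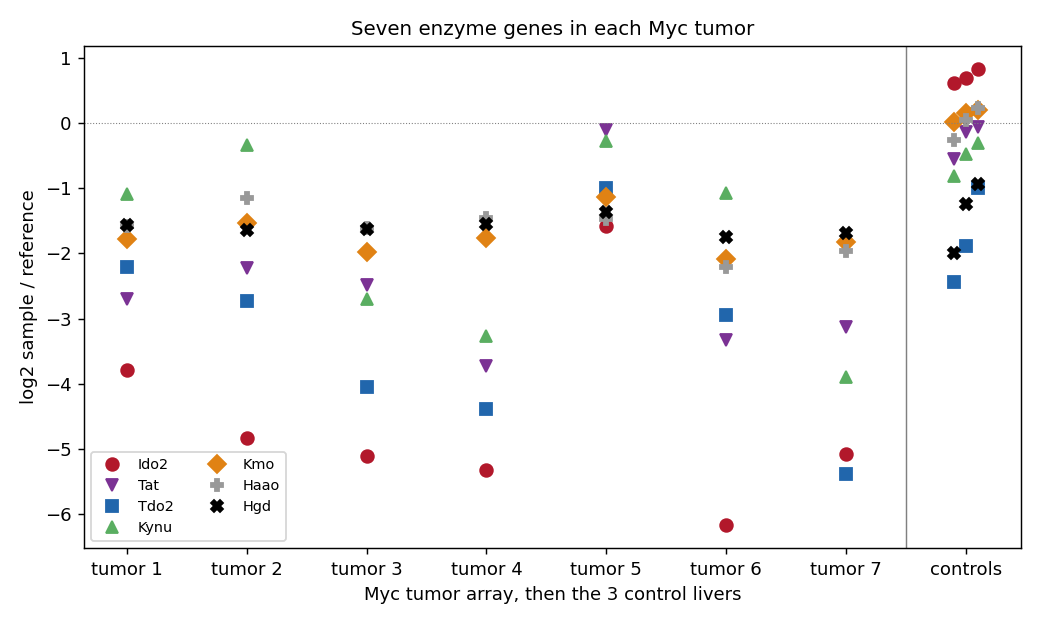
Log2 of sample over reference (vertical axis) of 7 of the enzymes, 1 point shape for each, with a column for each of the 7 Myc tumors and the 3 controls side by side at the right. Tumor 5 is the highest Myc tumor for every enzyme shown except Haao, and reads -0.11 for Tat.

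Other genes of the pathways were taken from lists of phenylalanine and tyrosine genes (10) and of tryptophan and NAD genes (15). On the phenylalanine and tyrosine side 4 of 10 were lower in Myc tumors and none was higher (median -0.23), where 16.1% of all probes were called lower. They were Gch1 (-1.06) and Pcbd1 (-0.36), which make and recycle the cofactor tetrahydrobiopterin, Gstz1, the isomerase between Hgd and Fah (-1.22), and Il4i1, an amino acid oxidase (-0.31). On the tryptophan and NAD side 5 of 15 were lower and 1 was higher (median -0.12). Aadat, which turns kynurenine into kynurenic acid, was 4.17 lower (log2 difference -4.17). Afmid, which makes kynurenine from the product of Tdo2 and Ido2, differed by -1.87, Aldh8a1 by -1.52, Gcdh by -1.37 and Nmnat1, of NAD synthesis, by -0.79. Ddc, a decarboxylase of aromatic amino acids, was 1.42 higher. Of 8 transcription regulators of liver genes, 5 were lower. In TGFα/Myc tumors against controls, Qdpr, which also recycles tetrahydrobiopterin, was the 1 gene of both pathway lists called (-1.19, limma adjusted p = 0.013).

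Markers of cells moved as well. In Myc tumors against controls 5 of 8 hepatocyte markers and 3 of 6 endothelial markers were lower, and 5 of 5 neutrophil markers and 5 of 5 genes of dividing cells were higher. Of all probes 35.4% were called and 16.1% were called lower. Macrophage markers were mixed (2 of 6 higher, 2 lower), as were stellate and fibroblast markers (1 of 6 higher, 2 lower). Also lower were 2 of 5 lymphocyte markers and 1 of 5 cholangiocyte and progenitor markers. The mean of the neutrophil list ran from 0.43 to 2.74 in the Myc tumors, from 0.07 to 0.43 in the TGFα/Myc tumors and from 0.31 to 0.53 in the controls. That of dividing cells ran from 0.11 to 3.69 in the Myc tumors, from 1.05 to 2.45 in the TGFα/Myc tumors and from -0.43 to -0.16 in the controls. In TGFα/Myc tumors 0 of 8 hepatocyte markers were called, and 2 of 5 genes of dividing cells were higher, where 1.59% of all probes were called. The part of these shifts in the enzyme values was not tested.

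The only Myc tumor scanned on a day that also held a control was tumor 1, on day 1, with 1 control. Between these 2 arrays Ido2 differed by -4.46, Tat by -2.56, Kmo by -1.79, Hpd by -1.69, Haao by -1.32 and Fah by -1.00, values with no replicate. The fit with scan day as a fixed block gave these same differences. With median centring in place of loess 3 of the 12 probes passed, those of Ido2 (-4.90, brighter probe), Tat (-2.02) and Kmo. Hpd (-1.36) and Haao (-1.14) did not pass there. On day 7, 2 TGFα/Myc tumors and 1 control were scanned, with no replicate of the control. There Hpd differed by -2.17, Haao by -1.24, Kmo by -1.21 and Tdo2 by -1.16 at its brighter probe. Hgd differed by -1.09, Tat by -1.05, Ido2 by -1.00, Fah by -0.93 and Kynu by -0.45, also at the brightest probes.

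With c-Myc off, the enzymes were higher than in the Myc tumors. At 4 weeks 9 of 12 probes were higher and none lower, where 30.4% of all probes were called and 13% were higher. At 12 weeks 11 of 12 were higher and none lower, where 29.4% were called and 13.8% were higher. The median difference over the 9 genes was 1.54 at 4 weeks and 1.89 at 12 weeks, against -0.0046 and -0.0027 over all probes. Within scan day 1 (3 livers off for 4 weeks and 1 tumor, with no replicate of the tumor), Ido2 differed by 4.16, Tat by 3.00 and Hpd by 2.13. There Kmo differed by 1.59, Haao by 1.28, Fah by 1.16, Tdo2 by 0.99, Kynu by 0.49 and Hgd by 0.47, each at its brightest probe. On slide 1, between 1 off liver and 1 tumor, Ido2 differed by 4.41 and Tat by 3.01, with no replicate. With scan day as a fixed block none of the 12 probes passed at 12 weeks, with differences of 4.30 for Ido2, 3.15 for Tat, 2.21 for Hpd and 1.62 for Kmo. With median centring in place of loess 2 passed at 4 weeks, Ido2 (4.28) and Tat (2.20), with Hpd at 1.16 and Kmo at 0.97, where the median of all probes was -0.11.

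Ido2 read 0.62, 0.22 and 0.29 in livers off c-Myc for 4 weeks and 0.21, 0.66 and 0.84 in those off for 12 weeks, above all 7 Myc tumors. The differences from the tumors were 4.93 (SE 0.59, limma adjusted p = 4.14e-06) and 5.13 (SE 0.59, adjusted p = 2.02e-06). Tat read 0.31, 0.15 and 0.45 at 4 weeks and 0.82, 0.03 and -0.12 at 12 weeks, with the lowest of these beside tumor 5 at -0.11. It was 2.83 and 2.77 higher than in the tumors. Neither value is exact, since 3 of the tumor ratios are upper bounds and the spot was saturated in the sample of 2 livers off for 12 weeks. Hpd was 1.80 higher at 4 weeks and 2.59 at 12 weeks, and Fah 1.12 and 1.60. Hgd did not pass at 4 weeks (0.51, adjusted p = 0.0765) and was 1.08 higher at 12 weeks (adjusted p = 0.000555). Tdo2 was 2.03 and 2.40 higher at its brighter probe, Kmo 1.54 and 1.72, and Haao 1.33 and 1.89. Kynu did not pass at 4 weeks (1.21, limma adjusted p = 0.0942) and was 1.42 higher at 12 weeks (adjusted p = 0.0497). The 12-week call held in 11 of 29 alternatives. It was lost in 6 of the 10 fits that left out 1 of these arrays, and also with the sample channel alone (adjusted p = 0.106).

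With both transgenes off, Hpd, Hgd and Fah were higher than in the TGFα/Myc tumors at both times. At 4 weeks 4 of 12 probes were higher, where 6.78% of all probes were called and 3.63% were higher, and at 12 weeks 4 of 12, where 3.57% were called and 1.82% were higher, with none lower at either time. The medians over the 9 genes were 0.83 and 1.11, against 0.0081 and -0.0076 over all probes. Hgd read -1.24, -1.01 and -0.41 at 4 weeks and -0.67, -0.62 and -0.79 at 12 weeks, above all 3 TGFα/Myc tumors. It was 1.44 higher (SE 0.25, limma adjusted p = 0.00146) and 1.64 higher (adjusted p = 0.000743). Hpd was 1.69 and 2.08 higher, and Fah 0.83 and 1.11. Tdo2 was 2.61 higher at 4 weeks at its brighter probe (adjusted p = 0.0304), with 0.76 in the third liver, alone on its slide and day, and -0.69 and -1.03 in the other livers. Haao was 1.10 higher at 12 weeks (adjusted p = 0.00509) and 0.43 higher at 4 weeks (95% interval -0.02 to 0.88), which did not pass. Ido2 differed by 0.27 (95% interval -1.18 to 1.73) and 0.73 (95% interval -0.72 to 2.18). No day or slide held both TGFα/Myc tumors and their off livers. With median centring in place of loess none of the 12 probes passed at either time, though the differences were larger, at 2.60 and 3.11 for Hpd, 2.28 and 2.57 for Hgd and 1.72 and 2.12 for Fah, where the median of all probes was 0.10 and 0.07. Without TGFα/Myc tumor 1 the counts were 1 and 2, and with slides as a random block they were 2 and 1.

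**Figure D4:**
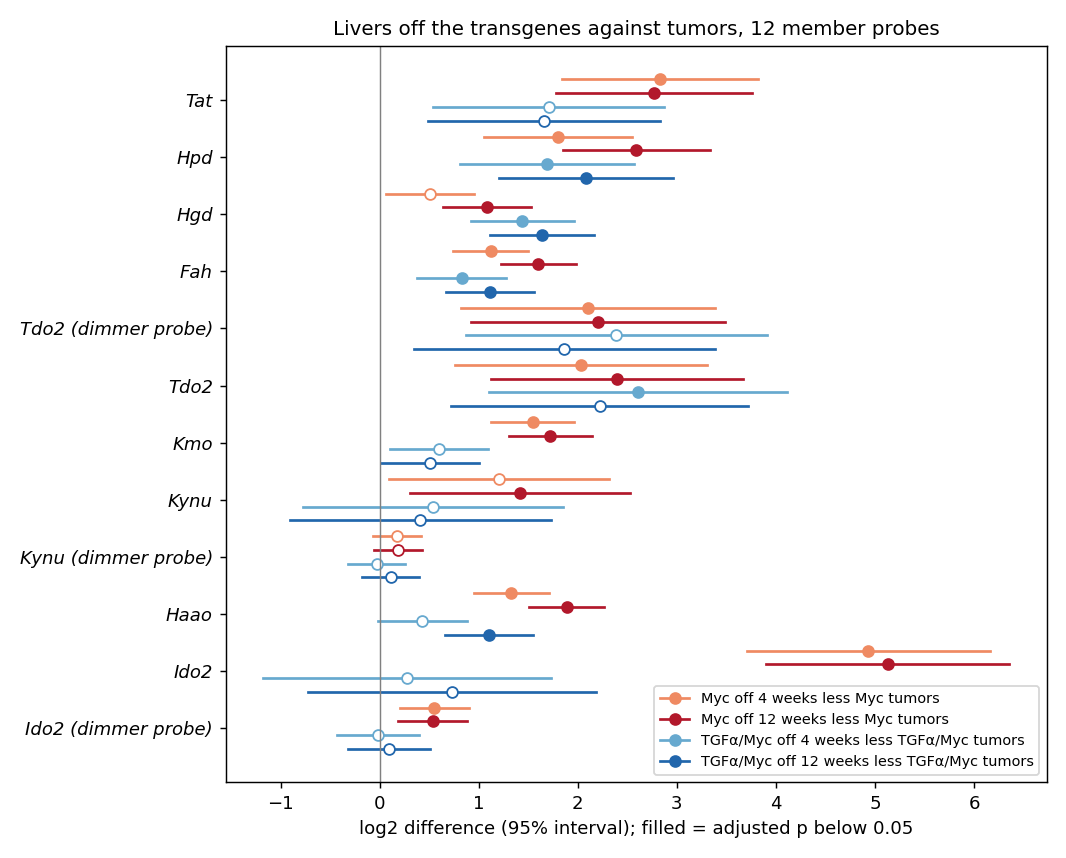
Log2 difference of off livers from tumors of the same transgene (horizontal axis) at 4 and 12 weeks, for c-Myc and for TGFα/Myc, with 95% intervals and filled points for an adjusted p below 0.05. Ido2 is higher by 4.93 and 5.13 off c-Myc and by 0.27 and 0.73 off both transgenes, while Hgd is filled at both times off both transgenes.

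On the phenylalanine and tyrosine side 3 of 10 other genes were higher off c-Myc for 4 weeks (Gch1 by 1.53, Gstz1 by 1.29 and Pcbd1 by 0.42) and none was lower, where 13% of all probes were called higher. On the tryptophan and NAD side 4 of 15 were higher (Aadat by 4.18, Afmid by 2.24, Aldh8a1 by 1.55 and Gcdh by 1.14), and Ddc was lower (-1.66). Regulators of liver genes were higher in 3 of 8, hepatocyte markers in 6 of 8 and endothelial markers in 4 of 6, while 4 of 5 neutrophil markers and 5 of 5 genes of dividing cells were lower. Macrophage markers were mixed (2 of 6 higher, 2 lower). Stellate and fibroblast markers were higher in 2 of 6, cholangiocyte and progenitor markers in 2 of 5 and lymphocyte markers in 1 of 5.

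The change from tumor to off liver was smaller off both transgenes than off c-Myc for a few enzymes, as a difference of the 2 differences. At 4 weeks 3 of 12 probes were called, all lower, where 13.6% of all probes were called and 5.84% were lower. They were Ido2 (-4.66, SE 0.92, limma adjusted p = 0.00236), Haao (-0.90, SE 0.28, adjusted p = 0.0368) and Kmo (-0.95, SE 0.31, adjusted p = 0.0467). At 12 weeks 2 of 12 were called, where 2.65% of all probes were called and 1.32% were lower, Ido2 (-4.40, SE 0.92, adjusted p = 0.0163) and Kmo (-1.21, SE 0.31, adjusted p = 0.0395). Hpd differed by -0.11 at 4 weeks (95% interval -1.27 to 1.04) and Tdo2 by 0.57 (95% interval -1.39 to 2.54), intervals that hold large differences of either sign. With median centring in place of loess no probe passed at either time, and Kmo (0.31) and Haao (0.37) changed sign at 4 weeks. Leaving out single arrays moved these counts between 1 and 4 at 4 weeks and between 0 and 3 at 12 weeks.

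Off livers were also set against the controls, with the same 3 controls in each of 6 comparisons. None of the 12 probes was called in any of them by limma. At 4 weeks 0.00317% of all probes were called off c-Myc, 5.72% off both and 0.609% off TGFα. At 12 weeks 0.139% were called off c-Myc, 0.0159% off both and 0.0222% off TGFα. An unadjusted p below 0.05 was met by 0, 1 and 2 member probes at 4 weeks, and by 3, 2 and 1 at 12 weeks, in the same order. The share of all probes at that unadjusted threshold was not counted, so these counts have nothing to be set against. No member passed within the scan days or the slide that held off livers and a control. The intervals were wide for Tdo2 (-0.93 to 2.07 off c-Myc for 4 weeks) and Ido2 (-1.79 to 1.12). These widths rest on the spread pooled over all groups, tumors included. The SD of Ido2 at its brighter probe was 0.22 in these livers and 0.11 in the controls, against 1.49 in the Myc tumors. Off both transgenes for 4 weeks Haao read -0.72, -0.62 and -0.66, below the 3 controls (-0.68, SE 0.22, limma adjusted p = 0.0675). Other members lay apart from the controls too, on either side, and not all are listed. Ido2 ran from -0.29 to 0.30 in the same livers and from -0.14 to -0.02 off TGFα for 4 weeks, below the controls (0.62 to 0.83). Kmo lay below the controls off TGFα at both times. Fah ran from 0.20 to 0.58 off c-Myc for 12 weeks, above the highest control (0.14). Livers off for 12 weeks and for 4 weeks were compared for each transgene with no member called, where 0.00317% of all probes were called for c-Myc, 1.14% for both and 1.14% for TGFα. There 3, 1 and 2 member probes had an unadjusted limma p below 0.05, again with no share of all probes counted. In livers off TGFα for 12 weeks Tdo2 read -2.14, -2.08 and -2.11, below the -0.59 and -1.07 of those off for 4 weeks (-1.28, SE 0.81, limma adjusted p = 0.54). This SE too comes from the spread pooled over all groups.

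Ordered by group mean at the brightest probe, Myc tumors were lowest for Tat, Hpd, Fah, Tdo2, Ido2, Kmo and Kynu. TGFα/Myc tumors were lowest for Hgd, at -2.33 ± 0.30 (SD, n = 3), and the single array labelled TGFα tumor 1 for Haao, at -1.90. The top place went to livers off c-Myc for 12 weeks for Hpd, Hgd, Fah, Kynu and Haao, to livers off both for 4 weeks for Tdo2 and to the controls for Kmo and Ido2. For Tat no top place can be given, since 2 livers off c-Myc for 12 weeks have only a lower bound. Among neighbours in these orders at the brightest probes, Haao in Myc tumors (-1.64 ± 0.35, n = 7) and TGFα/Myc tumors (-1.10 ± 0.16, n = 3) was the 1 pair that passed the test. At the dim probe of Ido2 the Myc tumors (-0.65 ± 0.43, n = 7) and the next group, livers off both for 4 weeks (-0.18 ± 0.13, n = 3), passed too.

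TGFα tumor 1 read -1.19 for Tat, -1.64 for Hpd, -1.88 for Hgd and -0.71 for Fah. On the tryptophan side it read -1.56 for Tdo2 at the brighter probe, -1.73 for Ido2, -1.40 for Kmo, -1.33 for Kynu and -1.90 for Haao. It was the only TGFα tumor against the common reference and was not compared with the controls by a test. In the group orders no pair that held it passed, with the lone array assumed to vary like the others. It was below the lowest control for Tat, Hpd, Fah, Ido2, Kmo, Kynu and Haao and within the controls for Hgd and Tdo2.

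Across the 31 arrays the closest pair of enzymes was Hpd and Fah (Pearson r = 0.955), followed by Tat and Fah (0.912) and Kmo and Ido2 (0.907). Tdo2 and Kynu stood at 0.790, and the lowest pair was Hgd and Kynu (0.361). Arrays share their groups and their reference, so these values describe the set and carry no p. The gene outside the set with the highest correlation was Cyp2a12 for Ido2 (0.974), Ugt2b1 for Kmo (0.973), Slc27a5 for both Fah (0.959) and Hpd (0.931), Mfsd3 for Haao (0.945), Tfr2 for Tat (0.943), Uox for Kynu (0.929), Slc10a1 for Tdo2 (0.928) and Yif1a for Hgd (0.910).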

How the data were processed

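RNA of 34 samples was hybridised on Agilent whole mouse genome arrays. Per the file headers, the deposited scanner files hold mean and background intensity in both channels, and the log10 ratio of red over green made from processed signals. The deposited series matrix holds log2 values of red over green, with the authors' background, dye and centring steps not stated. The submitters' processing notes name limma with no version.

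Here the mean signals were background-corrected by normexp (offset 50), normalized within each array by loess, and read as log2 of Cy3 (sample) over Cy5 (reference), with R 4.3.3 and limma 3.58.1. The probes kept were those whose Cy3 signal was well above background on 3 or more of 31 arrays. Slide 5 (3 arrays) was kept out of the fit. Groups were taken from the sample titles. lmFit with 1 coefficient per group and eBayes gave 18 comparisons, with the Benjamini-Hochberg adjusted p over all probes and a threshold of 0.05. The fit was tested on simulated data. The files name Ido2 as Indol1 in 28 cases.

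All members were named at every probe. Other pathway genes were named where called in Myc tumors against controls or in livers off c-Myc for 4 weeks against Myc tumors, and for each member those of most similar pattern were found by Pearson correlation. 1 gene of the first pathway list is not reported here. Qdpr was named outside this rule, after its values were seen. Members and lists were chosen with earlier results of these data known. Alternatives covered background, scaling, filters, batches, the replicate block and leaving out each array. The fit without the 3 libraries whose labels are in question was chosen after seeing the data.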

Additional observations from a re-analysis of the deposited data

Results flagged for a closer look

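Myc tumor 5 stood far from the other 6 Myc tumors for Tat (-0.11) and Fah (-0.53), where its gap to the nearest tumor took up more of the group's range than Dixon's 95% critical value for 7 samples allows. This rule was applied to all 12 probes, and chance marks about 1 in 20 such groups. Tat and Fah were correlated across the arrays (Pearson r = 0.912) and share tumor 5, so these marks are not independent. The Tat ratios of tumor 5 and of tumor 2, the nearest to it, are upper bounds, so the gap for Tat is not exact. Tumor 5 had the lowest Myc level of its group at 2 Myc probes (1.04 and 0.10) and the highest at the third, A_51_P102096 (0.43).

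The change from tumor to off liver differed between TGFα/Myc and c-Myc, by a test of the difference itself, for Ido2 (-4.66), Kmo (-0.95) and Haao (-0.90) at 4 weeks and for Ido2 (-4.40) and Kmo (-1.21) at 12 weeks. At 4 weeks the call held in 33 of 34 alternatives for Ido2, in 12 for Kmo and in 17 for Haao. At 12 weeks it held in 29 of 35 for Ido2 and in 17 for Kmo. Most alternatives leave out 1 array or change the processing. Scan day could not be fitted as a block for the 4-week difference, so the count there does not cover it. With that block at 12 weeks neither passed, with Ido2 at -3.55 and Kmo at -0.85.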

How the results depend on the processing

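Of 5766 member values over all alternatives, 5437 kept direction and side of the threshold, 223 lost a call, 101 gained one and 5 turned round. Aquantile scaling, which leaves ratios as they are, changed none. The shares of all probes called under each alternative are not given here, so counts of called members under them stand without that measure. Those that turned round were Haao in TGFα/Myc against Myc tumors (-0.056 with Agilent's processed signals, -0.26 with median centring), Kmo (0.31) and Haao (0.37) in the difference of responses at 4 weeks with median centring, and the dim Kynu probe A_52_P160896 in livers off TGFα for 12 against 4 weeks (-2.57 with the series matrix). The cause was not tested. Median centring moved the median of all probes by -0.18 between TGFα/Myc and Myc tumors and by 0.31 in the 4-week difference, and moved the share of calls that are higher to 71.9% for Myc tumors against controls (54.6% with loess) and to 15.9% for TGFα/Myc against Myc tumors (45.2% with loess). It left 3 called probes for Myc tumors against controls, 2 for livers off c-Myc for 4 weeks against tumors, 1 for TGFα/Myc against Myc tumors, and 0 for TGFα/Myc tumors against controls, both TGFα/Myc off comparisons with tumors and both differences of responses. TGFα/Myc tumors against controls (1 called) gave 4 with no background subtraction, Agilent's signals, the sample channel alone or the replicate block, 3 with the series matrix, scan day as a block, day 7 alone or the sex score, 2 without the libraries in question, and 0 with only the groups compared, all 34 arrays or slides as a random block. TGFα/Myc against Myc tumors (5) gave 3 with no background subtraction, the sample channel, the series matrix, only the groups compared or the replicate block, 2 with all 34 arrays and 0 with scan day as a block. Myc tumors against controls (8) gave 4 with scan day as a block or day 1 alone, both between 1 array and 1 array. Livers off c-Myc for 12 weeks against tumors (11) gave 7 with only the groups compared and 0 with scan day. Livers off both for 4 weeks against tumors (4) gave 7 with no background subtraction, Agilent's signals, the series matrix or without the libraries in question, 2 with slides and 0 with only the groups compared; at 12 weeks (4) they gave 7 without the libraries in question, 2 with only the groups compared and 1 with slides or scan day. The 4-week difference (3) gave 1 with only the groups compared, all 34 arrays or slides. The 12-week difference (2) gave 1 with no background subtraction, the sample channel, the series matrix, no filter or all 34 arrays, and 0 with only the groups compared, slides or scan day. Livers off TGFα for 12 against 4 weeks (0 called, 2 at an unadjusted p below 0.05, limma) gave 1 with the series matrix and 2 with only the groups compared. Livers off both for 4 weeks against controls (0 called, 1 unadjusted) gave 1, Haao, with the replicate block. Replicate numbers do not pair the samples in general: over 100 same-numbered pairs the correlation of deviations ran from -0.41 to 0.54 (median 0.017), with 34 over 0.1. All 3 pairs were over 0.1 for TGFα off 12 weeks with controls (0.355, 0.197 and 0.398) and for TGFα/Myc off 12 weeks with controls (0.412, 0.398 and 0.316), where the replicate block gave 0 called probes, as without it. The block changed no other count by over 1.5 times. Leaving out 1 array gave 6 to 10 called probes for Myc tumors against controls, 0 to 2 for TGFα/Myc tumors against controls, 6 to 10 and 8 to 11 for livers off c-Myc for 4 and 12 weeks against tumors, 1 to 6 and 2 to 5 for livers off both, 3 to 7 for TGFα/Myc against Myc tumors, 0 to 1 for livers off c-Myc for 12 weeks against controls, 1 to 4 and 0 to 3 for the differences, and 0 for all others. Counts moved by over 1.5 times without each of TGFα/Myc tumors 1, 2 and 3 or the second liver off both for 4 weeks and, for the differences alone, without Myc tumors 3 and 6, livers 1 and 2 off c-Myc for 4 weeks, any liver off c-Myc for 12 weeks, or livers 1 and 2 off both for 12 weeks. The within-slide correlation was 0.444, while the main fit takes arrays on the same slide as independent. Dim probes of Kynu and Ido2, near background, limit what they can show.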
